A study of Mus musculus with 6 samples.

Results

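The 44 genes described here drive DNA replication and cell division. They were chosen by name as cell cycle and replication genes, and each symbol was matched through a reference table of gene IDs to 1 Ensembl gene among the 49315 genes of the count tables. Of the 44 genes, 21 act in or before S phase, the phase in which DNA is copied, and 23 act in mitosis. The first group holds the regulators E2f1, E2f2, Ccne1 and Ccne2, 11 genes of origin licensing and the replicative helicase, and 6 genes of the replication fork and of nucleotide supply. The second holds 9 cyclins, kinases and ubiquitin enzymes, 3 checkpoint and passenger genes, and 11 genes of chromosomes, spindle and kinetochore.

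The study sequenced RNA of mouse CD4+ T cells that carry the transgenic CBir1 T cell receptor, which recognises a flagellin of intestinal bacteria, in 6 libraries of 1 condition each. All mice are labelled C57BL/6 and all cells come from spleen. For 5 libraries, CD44- donor CD4+ cells marked by CD45.1 went into CD45.2 recipients, which were immunised with 50 µg CBir1 flagellin and 1 µg CT on days 1 and 7. The inhibitor and vehicle groups then had 3 µg MEP1 intravenously on days 28 and 35, each dose followed by 5 daily intraperitoneal injections of the vehicle CMC with metformin and rapamycin (MEP1+Metformin+Rapamycin, here the combination library), with rapamycin (MEP1+Rapamycin), with metformin (MEP1+Metformin) or alone (MEP1+CMC). The No treatment group had neither MEP1 nor inhibitor in that period, and every recipient group was challenged with 3 µg MEP1 on day 56 and its donor cells were sorted on day 63. The last library is labelled only as a naive CD4 control of CBir1 transgenic cells. Metformin lowers mitochondrial ATP production and activates AMPK, and rapamycin inhibits the kinase complex mTORC1. The labels do not say what MEP1 stands for, nor how many mice gave a library.

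Each condition had 1 library, so the intervals given for a pair of libraries cover counting error only. Spread between animals or library preparations is part of each difference but could not be measured. The libraries held 26139000 to 60622310 counts, the lowest in the naive library. All 17 CD4 T cell markers were detected in all 6 libraries. Loci that collect ribosomal RNA reads held 15.4% of the counts in the naive library and 1.00% to 3.13% in the others. The header of the No treatment counts reads No-challenge, although the protocol has every recipient challenged; the sample label was used. Xist, transcribed from the inactive X chromosome of female cells, had 11 to 18 counts in the 3 inhibitor libraries, against 15368 in MEP1+CMC, 1391 in No treatment and 801 in naive. The Y-linked Ddx3y had 2298 to 4849 counts in the 3 inhibitor libraries, against 18 in MEP1+CMC, 2066 in No treatment and 7 in naive. In every comparison of an inhibitor library with MEP1+CMC, the inhibitor and this difference in sex-linked transcripts cannot be told apart.

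Cells that prepare to divide release E2F transcription factors from the retinoblastoma protein, and E2F turns on the genes that license replication origins, build the MCM helicase and supply nucleotides. Mitotic genes come later, under the MuvB complexes with B-MYB and FOXM1, through a promoter element called CHR that often lies near CCAAT boxes; the same MuvB core, as part of the DREAM complex, keeps these genes silent in resting cells. Naive and resting memory T cells rest outside the cycle and divide after they meet antigen. In bulk RNA, fewer dividing cells and less RNA per dividing cell cannot be told apart.

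S-phase and mitotic genes held different motifs in their promoters, and the windows are shown because these elements belong to the regulation described above. RefSeq windows on build GRCm38.p6, 250 bases before to 50 bases after the start of a gene, were found for 36 of the 44 genes (17 S-phase and 19 mitotic); Ccne2, Mcm4, Gins1, Gins2, Ccna2, Aurkb, Tpx2 and Stmn1 had none in the table. An E2F motif (TTTCCCGC, TTTGGCGC, TTTCGCGC or TTTGCCGC, on either strand) occurred in 8 of 17 S-phase promoters and in 1 of 19 mitotic promoters, that of Cdk1, against 2.61% of the promoters of all 27025 genes in the table. A CHR motif (TTTGAA or TTCGAA, on either strand; TTCGAA reads the same on both) occurred in 15 of 19 mitotic and 4 of 17 S-phase promoters, against 21.7% of all. The CCAAT motif, on either strand, occurred in 17 of 19 mitotic and 11 of 17 S-phase promoters, against 41.1% of all. Genes with several windows counted once if any window held a match. These are matches of letters, not measured binding.

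The windows below show those motifs in the most abundant members of each kind that hold them, with the level taken per kilobase of exon. The E2F motif is in capitals in the promoters of Mcm6 (chr1:128359656-128359955, minus strand), Mcm3 (chr1:20820263-20820562, minus strand) and Mcm5 (chr8:75109259-75109558, plus strand), which encode subunits of the MCM helicase. In Mcm6 and Mcm5, 2 matches on opposite strands overlap and form 1 longer run of capitals.
Mcm6: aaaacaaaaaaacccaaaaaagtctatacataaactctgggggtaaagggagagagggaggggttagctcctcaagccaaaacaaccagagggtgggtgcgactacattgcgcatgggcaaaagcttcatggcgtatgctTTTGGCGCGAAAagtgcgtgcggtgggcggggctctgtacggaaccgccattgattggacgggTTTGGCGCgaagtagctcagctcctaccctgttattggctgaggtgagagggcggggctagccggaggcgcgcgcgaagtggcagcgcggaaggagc
Mcm3: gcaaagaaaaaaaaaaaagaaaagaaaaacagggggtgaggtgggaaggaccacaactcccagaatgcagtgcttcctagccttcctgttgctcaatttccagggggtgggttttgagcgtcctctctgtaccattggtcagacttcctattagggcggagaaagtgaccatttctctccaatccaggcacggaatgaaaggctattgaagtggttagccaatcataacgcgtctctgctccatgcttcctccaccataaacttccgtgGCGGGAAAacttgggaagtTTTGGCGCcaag
Mcm5: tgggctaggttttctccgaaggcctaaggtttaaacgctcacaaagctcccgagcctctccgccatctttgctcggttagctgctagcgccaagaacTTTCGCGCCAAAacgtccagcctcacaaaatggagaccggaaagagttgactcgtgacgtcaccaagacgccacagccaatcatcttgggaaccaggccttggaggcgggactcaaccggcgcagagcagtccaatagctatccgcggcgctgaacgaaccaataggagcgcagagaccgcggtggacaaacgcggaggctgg

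The CHR motif is in capitals in the promoters of Cenpa (chr5:30666636-30666935, plus strand), the histone variant of centromeres, of Cdc20 (chr4:118437294-118437593, minus strand), an activator of the ubiquitin ligase APC/C, and of Aurka (chr2:172370521-172370820, minus strand), a kinase of the spindle poles.
Cenpa: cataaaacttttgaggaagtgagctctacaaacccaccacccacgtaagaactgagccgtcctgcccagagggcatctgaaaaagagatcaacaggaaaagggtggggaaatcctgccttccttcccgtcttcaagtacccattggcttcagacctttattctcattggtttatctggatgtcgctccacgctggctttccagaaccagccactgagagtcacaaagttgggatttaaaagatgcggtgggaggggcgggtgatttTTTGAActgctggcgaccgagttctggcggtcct
Cdc20: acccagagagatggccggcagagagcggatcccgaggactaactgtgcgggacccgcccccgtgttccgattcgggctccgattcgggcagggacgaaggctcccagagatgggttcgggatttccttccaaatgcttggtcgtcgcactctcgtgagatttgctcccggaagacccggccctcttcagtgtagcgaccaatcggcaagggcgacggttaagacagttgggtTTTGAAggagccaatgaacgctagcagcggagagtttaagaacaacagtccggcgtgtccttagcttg
Aurka: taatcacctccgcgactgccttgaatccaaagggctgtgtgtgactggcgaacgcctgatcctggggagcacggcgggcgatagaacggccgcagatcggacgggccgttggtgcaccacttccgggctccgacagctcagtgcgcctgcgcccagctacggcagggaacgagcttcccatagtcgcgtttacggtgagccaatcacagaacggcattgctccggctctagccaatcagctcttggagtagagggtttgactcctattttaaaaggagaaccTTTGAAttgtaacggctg

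Levels are given as TMM CPM, that is, read counts scaled to a common library total (CPM) and then by trimmed-mean factors over the 6 libraries. Pcna, the sliding clamp of the replication fork, was the most abundant member per kilobase of exon, with a mean of 54.0 TMM CPM per kb over the 6 libraries. It was followed by Mcm6 at 31.4, Mcm4 at 30.6, Mcm3 at 19.6, Mcm5 at 19.3, Mcm2 at 15.2, Mcm7 at 15.0 and Cdt1 at 11.5 TMM CPM per kb. The mitotic genes lay lower: after Stmn1 at 9.07, Cenpa at 6.98 and Cdc20 at 4.62, the other 20 mitotic genes averaged 1.24 TMM CPM per kb (Aurka) or less. Mki67, the proliferation marker that encodes Ki-67, averaged 0.532 TMM CPM per kb.

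The summed level of the 21 S-phase genes was 854.9 TMM CPM in the combination library, 676 in the rapamycin, 868 in the metformin, 909 in the MEP1+CMC, 966 in the No treatment and 911 in the naive library. The rapamycin library was the lowest, and its 95% counting interval of 667 to 684 lay below those of the other 5; with library totals in place of TMM scaling, the naive library was the lowest at 647 CPM and the rapamycin library came next at 775. The summed level of the 23 mitotic genes was 106 TMM CPM in the combination library, 97.2 in the rapamycin, 128 in the metformin, 101 in the MEP1+CMC, 131 in the No treatment and 120.1 in the naive library. Stmn1 alone made up 42.4% of the mitotic sum in the naive library and 8.03% to 12.6% elsewhere. Without Stmn1 the mitotic sum was 95.6, 85.0, 117, 93.1, 118 and 69.2 TMM CPM in the same order, so that the naive library was the lowest. The S-phase sum was 13.2 times this mitotic sum in the naive library and 7.40 to 9.76 times in the other 5.

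**Figure D1:**
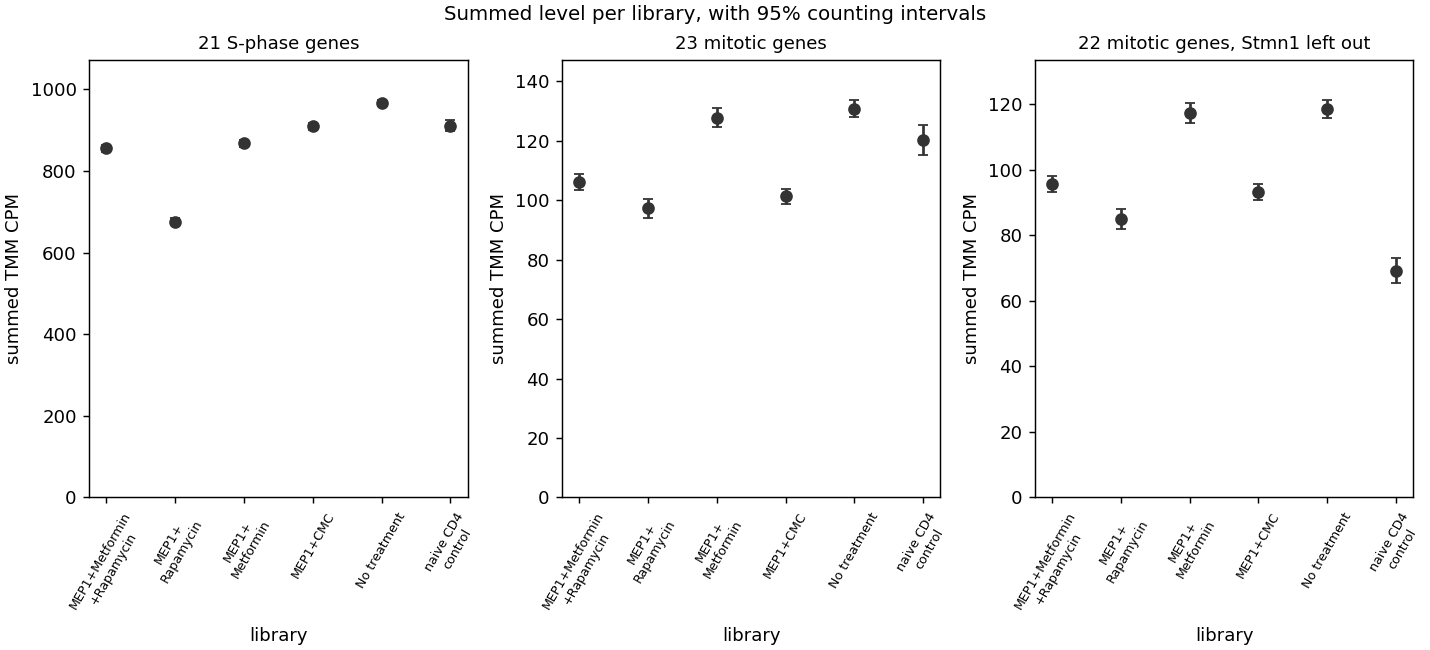
Summed TMM CPM (vertical axis) of the 21 S-phase genes, the 23 mitotic genes and the mitotic genes without Stmn1, with 1 point for each library and bars for 95% Poisson counting intervals, which for S-phase genes are about as small as the points. The S-phase sum is lowest in the rapamycin library at 676 TMM CPM (with library totals, in the naive library); the mitotic sum without Stmn1 is lowest in the naive library at 69.2 TMM CPM.

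Among the regulators, E2f1, an activator of S-phase transcription, had 4.88 TMM CPM in the combination library, 4.02 in the rapamycin, 6.03 in the metformin, 5.03 in the MEP1+CMC, 10.7 in the No treatment and 3.12 in the naive library. The No treatment library was the highest for E2f1 and the naive library the lowest. E2f2, an activator of the same family that also restrains T cell division, had 9.94 TMM CPM in the combination library, 10.5 in the rapamycin, 12.5 in the metformin, 6.16 in the MEP1+CMC, 11.9 in the No treatment and 9.31 in the naive library. Ccne1, a cyclin E that drives entry into S phase with CDK2, had 8.23 TMM CPM in the combination library, 10.5 in the rapamycin, 12.1 in the metformin, 7.39 in the MEP1+CMC, 11.1 in the No treatment and 9.58 in the naive library. Ccne2, the other cyclin E gene, had 2.12 TMM CPM in the combination library, 1.70 in the rapamycin, 3.25 in the metformin, 2.08 in the MEP1+CMC, 1.32 in the No treatment and 0.700 in the naive library. E2f2 was lowest in MEP1+CMC, E2f1 and Ccne2 in naive, and Ccne1 in MEP1+CMC by TMM but in naive with library totals.

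Of the licensing factors, Cdt1, which loads the helicase onto origins, had 34.9 TMM CPM in the combination library, 39.1 in the rapamycin, 33.3 in the metformin, 37.4 in the MEP1+CMC, 25.1 in the No treatment and 47.6 in the naive library, highest in the naive library by TMM. Cdc6, which loads it together with CDT1, was scarce, with 1.08 TMM CPM in the combination library, 0.135 in the rapamycin, 0.833 in the metformin, 0.887 in the MEP1+CMC, 0.504 in the No treatment and 0.215 in the naive library, and did not reach the minimum for testing. The 6 subunits of the helicase itself were among the most abundant members. Mcm2 had 103 TMM CPM in the combination library, 69.6 in the rapamycin, 99.4 in the metformin, 107 in the MEP1+CMC, 117 in the No treatment and 137 in the naive library. Mcm3 had 67.4 TMM CPM in the combination library, 63.3 in the rapamycin, 70.5 in the metformin, 67.9 in the MEP1+CMC, 83.0 in the No treatment and 89.6 in the naive library. The rapamycin library was the lowest for both.

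Mcm4 had 116 TMM CPM in the combination library, 76.9 in the rapamycin, 119 in the metformin, 111 in the MEP1+CMC, 129 in the No treatment and 108 in the naive library. Mcm5 had 74.1 TMM CPM in the combination library, 58.1 in the rapamycin, 64.1 in the metformin, 77.1 in the MEP1+CMC, 77.9 in the No treatment and 111 in the naive library. Mcm6 had 165 TMM CPM in the combination library, 98.8 in the rapamycin, 163 in the metformin, 178 in the MEP1+CMC, 173 in the No treatment and 101 in the naive library. All 6 subunits had their lowest level in the rapamycin library, and Mcm7 completed them with 68.4 TMM CPM in the combination library, 53.5 in the rapamycin, 57.5 in the metformin, 62.6 in the MEP1+CMC, 64.9 in the No treatment and 90.8 in the naive library. The naive library held the highest level of Mcm2, Mcm3, Mcm5 and Mcm7 by TMM, but with library totals it was the lowest for 3 of the 6 subunits, the rapamycin library for the other 3, and it was the highest for no S-phase gene.

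The helicase partner Cdc45 had 3.73 TMM CPM in the combination library, 2.05 in the rapamycin, 4.05 in the metformin, 3.79 in the MEP1+CMC, 3.11 in the No treatment and 4.68 in the naive library, lowest in the rapamycin library. Gins2, a subunit of the GINS complex that completes the helicase, had 3.78 TMM CPM in the combination library, 3.45 in the rapamycin, 4.20 in the metformin, 3.87 in the MEP1+CMC, 6.36 in the No treatment and 2.31 in the naive library, but 67.3% of its exon bases overlap Gse1 on the opposite strand, and whether reads were counted by strand is not given in the sources used here. Gins1, another GINS subunit, ranged from 0.785 TMM CPM in MEP1+CMC to 1.45 in naive. Smaller shares of exon bases overlap abundant genes on the opposite strand in Ccne2 (17.4%, Ints8), Ccna2 (12.5%, Exosc9) and Cdc45 (9.28%, Ufd1). Over all libraries Ints8 had 14847 counts against 556 for Ccne2. Exosc9 had 10265 against 359 for Ccna2, and Ufd1 21162 against 976 for Cdc45. The levels of these genes carry the same limit as Gins2.

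At the fork, Pcna had 109.6 TMM CPM in the combination library, 109.6 in the rapamycin, 128 in the metformin, 144 in the MEP1+CMC, 149 in the No treatment and 139 in the naive library. The nucleotide enzymes Rrm2, Tyms and Tk1 shared a low naive level. Rrm2, the small subunit of ribonucleotide reductase, had 4.02 TMM CPM in the combination library, 5.91 in the rapamycin, 5.61 in the metformin, 5.51 in the MEP1+CMC, 6.17 in the No treatment and 1.72 in the naive library. Tyms, thymidylate synthase, had 14.9 TMM CPM in the combination library, 17.0 in the rapamycin, 16.4 in the metformin, 15.4 in the MEP1+CMC, 17.4 in the No treatment and 3.82 in the naive library. Tk1, the thymidine kinase of the salvage pathway, had 6.87 TMM CPM in the combination library, 6.55 in the rapamycin, 6.46 in the metformin, 7.59 in the MEP1+CMC, 3.96 in the No treatment and 0.807 in the naive library. For each of the 3 genes the naive library was below all 5 transferred libraries. Rrm1, the large reductase subunit, which is less tied to S phase, ranged only between 38.0 TMM CPM in the rapamycin and 61.9 in the No treatment library. Uhrf1, which carries DNA methylation over to the new strand, had 7.25 TMM CPM in the combination library, 5.45 in the rapamycin, 7.02 in the metformin, 7.59 in the MEP1+CMC, 12.0 in the No treatment and 7.00 in the naive library, highest in No treatment.

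**Figure D2:**
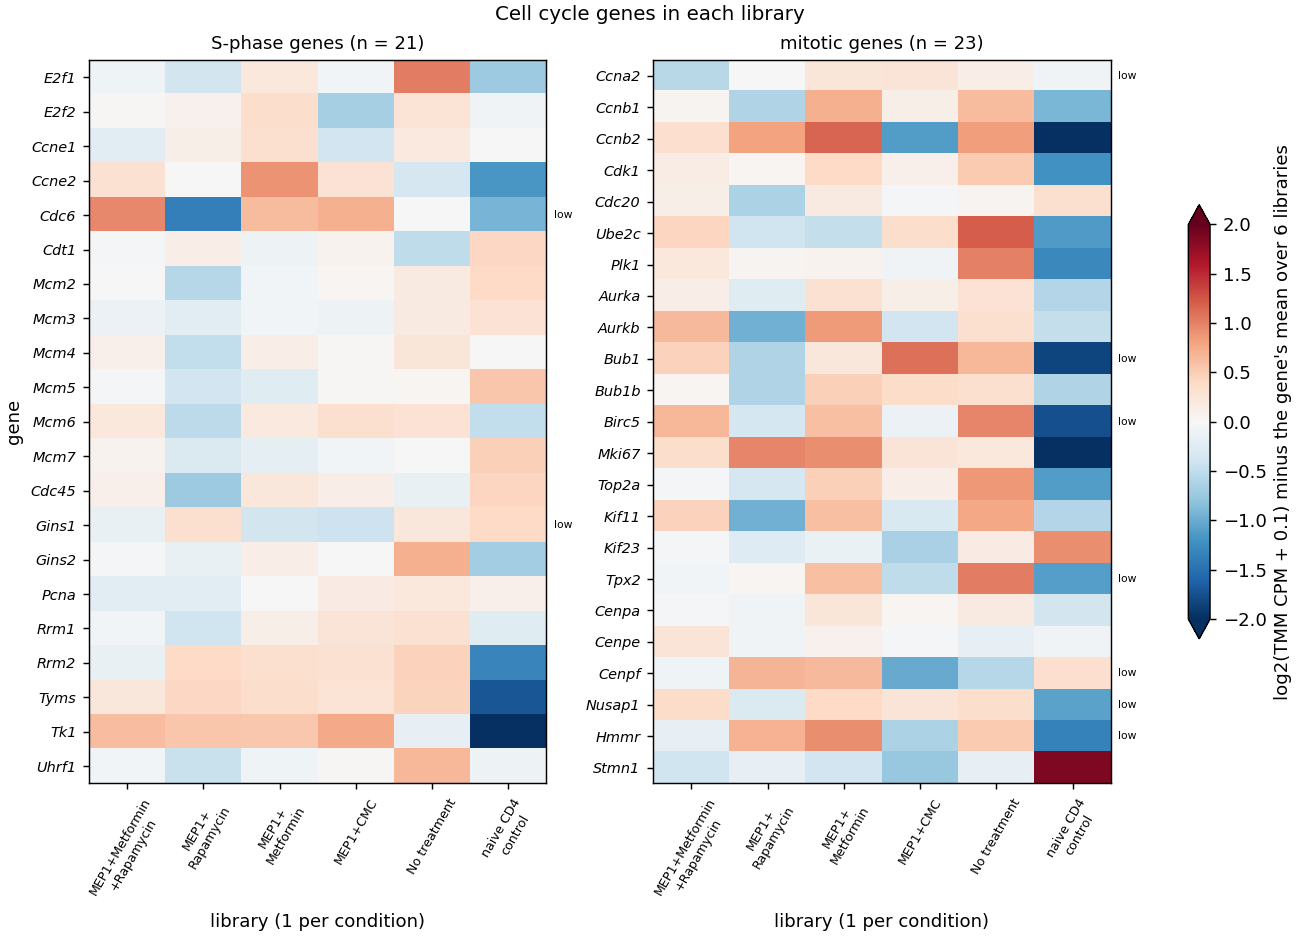
Heat map of the 44 genes (rows) in the 6 libraries (columns), S-phase genes on the left and mitotic genes on the right; colour is log2(TMM CPM + 0.1) minus the mean of the gene over the 6 libraries, with colours limited at 2.0 in either direction and "low" marking the 9 genes under the minimum for testing. Most mitotic genes and Rrm2, Tyms and Tk1 are lowest in the naive library, Stmn1 is highest there, and the Mcm rows are lowest in the rapamycin library by this scaling, though with library totals only 3 of the 6 are.

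Among the mitotic cyclins and kinases, Cdk1, the kinase that starts mitosis, had 3.05 TMM CPM in the combination library, 2.83 in the rapamycin, 3.65 in the metformin, 2.97 in the MEP1+CMC, 3.98 in the No treatment and 1.13 in the naive library. Its partner Ccnb1, cyclin B1, had 4.11 TMM CPM in the combination library, 2.56 in the rapamycin, 6.50 in the metformin, 4.26 in the MEP1+CMC, 6.17 in the No treatment and 2.05 in the naive library. Ccnb2, cyclin B2, had 0.968 TMM CPM in the combination library, 1.38 in the rapamycin, 1.78 in the metformin, 0.290 in the MEP1+CMC, 1.41 in the No treatment and 0.108 in the naive library, which are 2 to 90 counts. The processed copy Ccnb2-ps held 12 to 57 counts in the same libraries, so that the level of Ccnb2 is uncertain where reads of the copies were split between them. Ccna2, cyclin A2, was low everywhere with 0.825 TMM CPM in the combination library, 1.24 in the rapamycin, 1.51 in the metformin, 1.52 in the MEP1+CMC, 1.39 in the No treatment and 1.18 in the naive library. The naive library was the lowest for Cdk1, Ccnb1 and Ccnb2, and for Ccna2 with library totals but not by TMM.

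Plk1, a kinase of centrosomes and kinetochores, had 2.62 TMM CPM in the combination library, 2.32 in the rapamycin, 2.36 in the metformin, 2.13 in the MEP1+CMC, 4.60 in the No treatment and 0.861 in the naive library. Aurkb, the kinase of the chromosomal passenger complex, had 1.52 TMM CPM in the combination library, 0.432 in the rapamycin, 1.78 in the metformin, 0.699 in the MEP1+CMC, 1.20 in the No treatment and 0.646 in the naive library. Cdc20 had 9.13 TMM CPM in the combination library, 5.42 in the rapamycin, 9.54 in the metformin, 8.27 in the MEP1+CMC, 8.83 in the No treatment and 10.6 in the naive library. Plk1 was lowest in the naive library. By TMM Aurkb was lowest in the rapamycin library and Cdc20 highest in naive, whereas with library totals Aurkb was lowest in naive and Cdc20 highest in the metformin library. Ube2c, the E2 enzyme of APC/C, had 1.45 TMM CPM in the combination library, 0.782 in the rapamycin, 0.734 in the metformin, 1.38 in the MEP1+CMC, 2.59 in the No treatment and 0.431 in the naive library, and 22.8% of its exon bases overlap Tnnc2 on the opposite strand, a gene with 0 counts. Aurka ranged from 1.99 TMM CPM in naive to 3.79 in the metformin library.

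Birc5, the passenger protein survivin, had 1.31 TMM CPM in the combination library, 0.593 in the rapamycin, 1.25 in the metformin, 0.716 in the MEP1+CMC, 1.65 in the No treatment and 0.161 in the naive library. The checkpoint kinase Bub1 had 22 counts in the combination, 5 in the rapamycin, 16 in the metformin, 39 in the MEP1+CMC, 27 in the No treatment and 0 in the naive library. Bub1b, the checkpoint protein BUBR1, had 2.33 TMM CPM in the combination library, 1.46 in the rapamycin, 3.19 in the metformin, 2.95 in the MEP1+CMC, 2.85 in the No treatment and 1.45 in the naive library. All 3 genes were lowest in naive, though Bub1b was hardly higher in the rapamycin library.

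Mki67 had 5.33 TMM CPM in the combination library, 8.34 in the rapamycin, 8.05 in the metformin, 5.00 in the MEP1+CMC, 4.85 in the No treatment and 0.538 in the naive library. All 5 transferred libraries were above naive. Top2a, which untangles DNA before division, had 8.43 TMM CPM in the combination library, 6.74 in the rapamycin, 11.9 in the metformin, 9.45 in the MEP1+CMC, 15.8 in the No treatment and 3.88 in the naive library. Kif11, a motor that separates the spindle poles, had 1.90 TMM CPM in the combination library, 0.647 in the rapamycin, 2.10 in the metformin, 1.07 in the MEP1+CMC, 2.38 in the No treatment and 0.861 in the naive library. Cenpa had 39.3 TMM CPM in the combination library, 38.8 in the rapamycin, 48.2 in the metformin, 41.6 in the MEP1+CMC, 45.8 in the No treatment and 31.5 in the naive library. Cenpa did not pass the edgeR fit of transferred over naive libraries given further on (log2 fold change 0.44, adjusted p = 0.255), but did with library totals (1.03, edgeR adjusted p = 0.023). Tpx2, an activator of AURKA, had 0.879 TMM CPM in the combination library, 0.944 in the rapamycin, 1.45 in the metformin, 0.614 in the MEP1+CMC, 1.98 in the No treatment and 0.377 in the naive library. Cenpf, a protein of kinetochores, had 0.574 TMM CPM in the combination library, 1.05 in the rapamycin, 1.03 in the metformin, 0.256 in the MEP1+CMC, 0.382 in the No treatment and 0.807 in the naive library. Hmmr, a spindle protein, had 14 counts in the combination, 20 in the rapamycin, 33 in the metformin, 9 in the MEP1+CMC, 27 in the No treatment and 1 in the naive library, too few to order the libraries closely. Stmn1, stathmin, which destabilises microtubules, had 10.4 TMM CPM in the combination library, 12.3 in the rapamycin, 10.6 in the metformin, 8.14 in the MEP1+CMC, 12.3 in the No treatment and 50.9 in the naive library. Unlike most mitotic genes, it was highest in the naive library. Kif23 was also highest in naive, at 8.40 TMM CPM against 2.76 to 4.90, while Cenpe ranged only from 1.67 to 2.28 TMM CPM and Nusap1 from 0.431 in naive to 1.37 in the metformin library.

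The first comparison sets transferred cells against naive cells. Transfer with immunisation and challenge, the difference in sex-linked transcripts and the share of ribosomal RNA reads given above cannot be told apart in it. In the No treatment library, the nucleotide enzymes Tk1, Tyms and Rrm2, E2f1, Gins2 and 8 of 16 tested mitotic genes were higher than in naive and Stmn1 was lower, with the MCM helicase on both sides of no change. A gene was counted as higher or lower where the libraries differed at least 2-fold and the 95% counting interval excluded no change, among the 12928 genes with at least 2 CPM and 10 counts in some library. Of the 44 genes, 35 reached that minimum (19 S-phase and 16 mitotic), and a scarce gene could reach it only through its higher library. By this rule 13 of the 35 were higher and 1 was lower, where 16.3% of all genes tested were higher and 7.18% lower. The median log2 ratio of all 44 genes was 0.90 (1.32 with library totals, where all genes tested had 0.51), that of the 21 S-phase genes 0.35, that of the 23 mitotic genes 1.54, and that of all genes tested 0.09. The difference between the S-phase and mitotic genes was not tested.

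The 5 S-phase genes that were higher in No treatment than in naive were Tk1 with a log2 ratio of 2.29 (95% counting interval 1.54 to 3.16), Tyms with 2.18 (1.84 to 2.55), Rrm2 with 1.84 (1.32 to 2.41), E2f1 with 1.78 (1.39 to 2.19) and Gins2 with 1.46 (1.00 to 1.95). All 6 genes of the fork and nucleotide supply were above 0, from 0.10 for Pcna. The MCM subunits lay between -0.51 for Mcm5 and 0.77 for Mcm6, with 4 of 6 below 0 by TMM and 2 of 6 below 0 by library totals. Cdt1 was lower by less than 2-fold, at -0.92 (-1.05 to -0.80). E2f2 at 0.35 and Ccne1 at 0.21 stayed under the 2-fold limit.

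The 8 mitotic genes higher in No treatment than in naive were Ccnb2 with a log2 ratio of 3.71 (1.81 to 6.78) on 81 against 2 counts, Mki67 with 3.17 (2.27 to 4.25), Ube2c with 2.59 (1.57 to 3.83), Plk1 with 2.42 (1.69 to 3.25), Top2a with 2.03, Cdk1 with 1.82, Ccnb1 with 1.59 and Kif11 with 1.47. Among genes under the minimum, Birc5 at 3.35 (1.76 to 5.66, on 95 against 3 counts), Hmmr at 3.12 (0.52 to 8.48, on 27 against 1 count), Tpx2 at 2.39 and Nusap1 at 1.62 passed the same size limits. Stmn1 was lower, at -2.05 (-2.19 to -1.91), and so was Cenpf among the genes under the minimum, at -1.08 (-2.09 to -0.03). Kif23 at -0.78, Cdc20 at -0.26 and Cenpe at -0.09 were the other mitotic genes below 0, and the last 2 were above 0 with library totals.

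Markers of other cells also differed in this pair of libraries, in both directions. The 14 erythroid markers in the tables summed to 1719.8 TMM CPM in No treatment, against 413 in naive, with Rhag at 0 in both. The 15 macrophage markers summed to 4463 TMM CPM in No treatment, against 102 in naive, with Marco at 0 in naive. By the size rule 15 of 15 macrophage, 8 of 11 erythroid, 2 of 6 plasma cell and 2 of 2 NK cell markers were higher. Lower were 7 of 9 B cell, 2 of 2 CD8, 4 of 4 neutrophil and 2 of 11 erythroid markers. The part of such cells in the difference of the mitotic genes was not tested. In the 4 MEP1 libraries the erythroid sum was 63.8 to 399 TMM CPM, below the naive value, and the macrophage sum 596 to 956 TMM CPM, above it.

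All 5 transferred libraries can be set against the naive library in 1 fit, in which the spread comes from the 5 libraries and includes their treatments. Transfer with immunisation and challenge cannot be told apart from the ribosomal RNA share of the naive library in this fit. Nor can it be told apart from the difference in Ddx3y, which every transferred library but MEP1+CMC showed against naive. Tyms, Mki67 and Tk1 rose and Stmn1 fell in the transferred cells by edgeR's quasi-likelihood test with Benjamini-Hochberg adjustment over 12928 genes; these are 3 and 1 of 35 genes, where 4.12% of all genes tested rose and 5.57% fell. Tyms (ENSMUSG00000025747, GRCm38 chr5:30058202-30073617, minus strand) had a log2 fold change of 2.08 (SE 0.36, adjusted p = 0.00785). Mki67 (ENSMUSG00000031004, chr7:135689784-135716361, minus strand) had 3.53 (SE 0.91, adjusted p = 0.0364). Tk1 (ENSMUSG00000025574, chr11:117815526-117826092, minus strand) had 2.95 (SE 0.79, adjusted p = 0.042). Stmn1 (ENSMUSG00000028832, chr4:134468320-134473843, plus strand) had -2.25 (SE 0.25, adjusted p = 0.000957). All 5 transferred libraries were above naive for the first 3 genes and below it for Stmn1.

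The calls of Tyms and Stmn1 held in edgeR with any 1 transferred library left out. That of Mki67 was lost without the combination (adjusted p = 0.0613), the rapamycin (0.061) or the metformin library (0.0645), and that of Tk1 without any of these 3 or without MEP1+CMC (edgeR adjusted p = 0.0681 to 0.0823). Without the No treatment library, Mcm5 at -0.70 (edgeR adjusted p = 0.041) and Kif23 at -1.20 (adjusted p = 0.0481) were also called as lower than naive; without the rapamycin library, Mcm6 was called as higher, at 0.74 (adjusted p = 0.0411). With all libraries in the edgeR fit, Mcm5 at -0.66 (adjusted p = 0.0904), Mcm7 at -0.56 (0.12), Rrm2 at 1.65 (0.111) and Top2a at 1.44 (0.153) did not pass. Rrm2 and Top2a were called as higher than naive with library totals and by DESeq2's Wald test. Mcm5 and Mcm7 were called as lower by the Wald test but not with library totals. The p-values measure the spread among these libraries, not among mice.

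The second comparison sets earlier MEP1 with CMC vehicle against neither. MEP1, the CMC injections and the difference in sex-linked transcripts given above cannot be told apart in it. In MEP1+CMC, E2f1 and a set of mitotic genes were lower than in No treatment by TMM, whereas replication enzymes stayed within 2-fold. With library totals Tk1 passed the 2-fold limit, at a log2 ratio of 1.05, and E2f1 at -0.98 no longer did. By the size rule 0 of the 35 tested genes were higher and 4 lower, where 8.25% of all genes tested were higher and 3.63% lower. The lower genes were Ccnb2 with a log2 ratio of -2.28 (-3.13 to -1.51), Kif11 with -1.15 (-1.60 to -0.71), Plk1 with -1.11 (-1.43 to -0.80) and E2f1 with -1.09 (-1.29 to -0.89). Ccnb2 had 17 counts in MEP1+CMC and 81 in No treatment, and its processed copy Ccnb2-ps had 50 and 57. The ratio of Ccnb2 is therefore uncertain where reads were split between the copies. Under the minimum for testing, Tpx2 at -1.69, Hmmr at -1.61 and Birc5 at -1.20 passed the same size limits. Of all 23 mitotic genes 18 were below 0 (16 with library totals), with a median of -0.58, and of the 21 S-phase genes 15 were below 0 (11 with library totals), with a median of -0.13. All genes tested had a median of -0.04, which turned to 0.07 with library totals.

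Within S phase the genes split. E2f2 at -0.95, Gins2 at -0.72, Gins1 at -0.71, Uhrf1 at -0.66 and Ccne1 at -0.58 lay below 0 in MEP1+CMC over No treatment, each with a counting interval that excluded no change. Tk1 at 0.94 (0.70 to 1.17), Cdc6 at 0.82, Ccne2 at 0.66 and Cdt1 at 0.57 lay above it in the same way. The 6 MCM subunits stayed between -0.29 (Mcm3) and 0.04 (Mcm6). The erythroid sum was 399 TMM CPM in MEP1+CMC, against 1719.8 in No treatment, and the macrophage sum 956 against 4463, and their part in these differences was not tested.

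**Figure D3:**
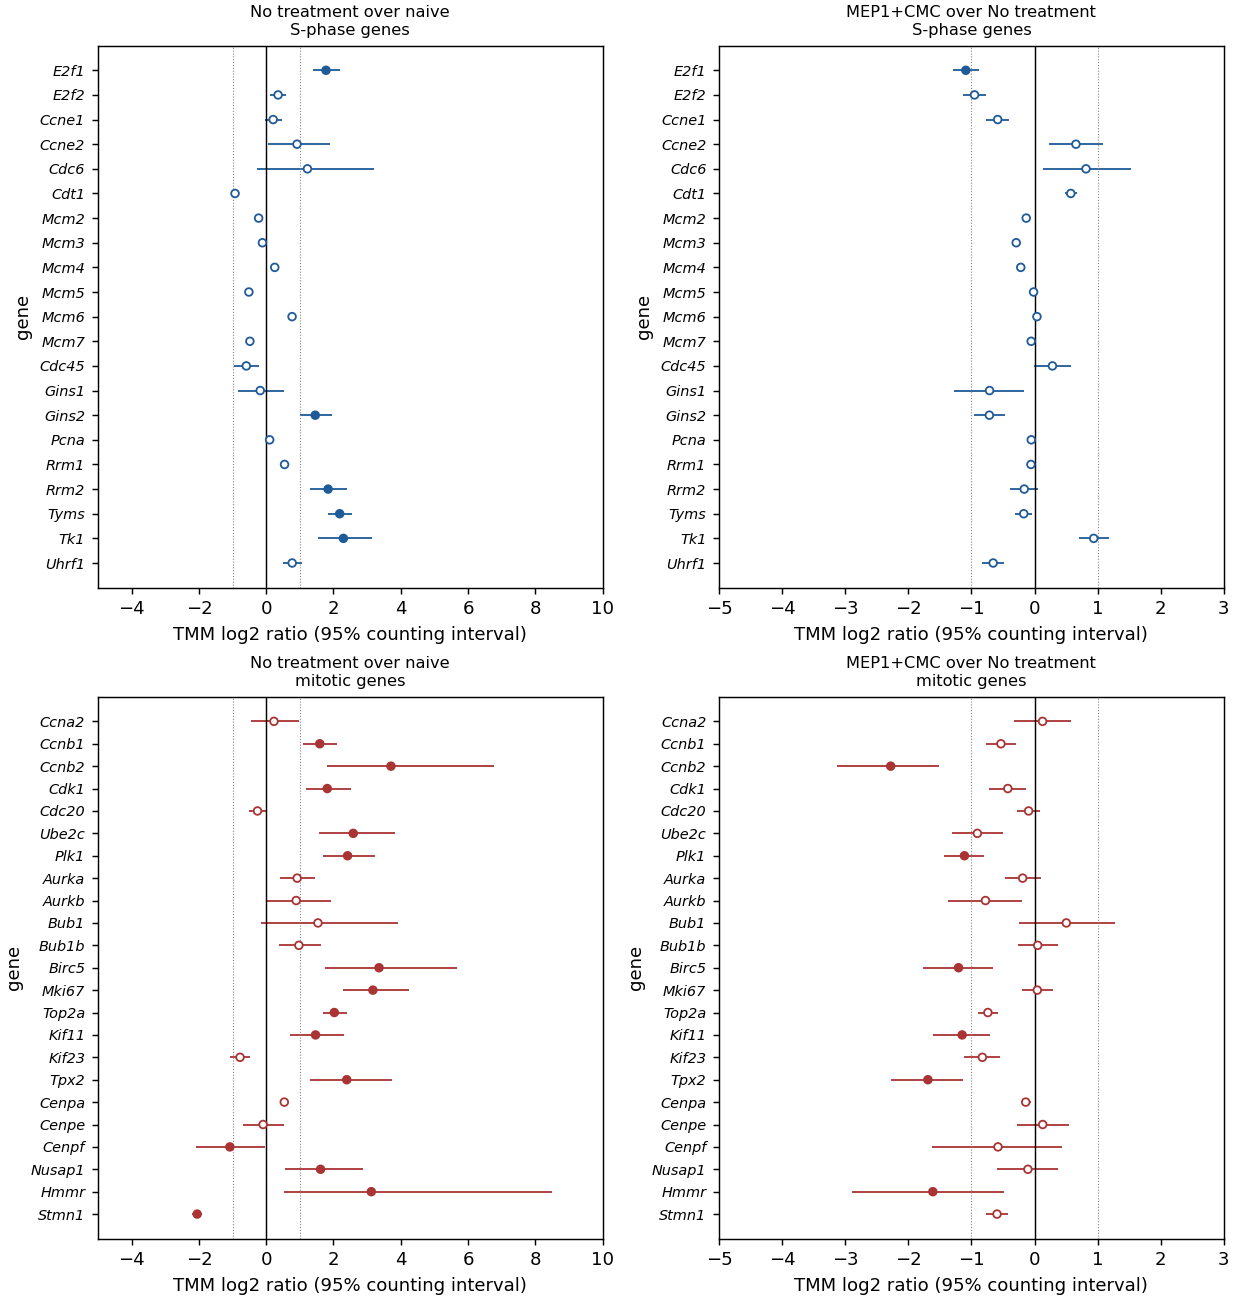
TMM log2 ratios (horizontal axis) of No treatment over naive (left) and of MEP1+CMC over No treatment (right) for the S-phase genes (top) and the mitotic genes (bottom), with lines for 95% counting intervals, dotted lines at a 2-fold difference and filled points for genes that passed the size limits, the scarce genes included. On the left Stmn1 lies at -2.05, opposite to most mitotic genes; on the right Ccnb2 lies at -2.28 and the Mcm genes near 0.

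Setting all 4 MEP1 libraries against No treatment gave no call. By edgeR's quasi-likelihood test 0 of the 35 genes rose or fell, where 0.634% of all genes tested rose and 1.3% fell; 7 of the 35 had an unadjusted p under 0.05, and DESeq2's Wald test called 1, E2f1 at -1.07 (adjusted p = 0.0365). In the edgeR fit E2f1 had the lowest adjusted p of the 35 genes, 0.114, at a log2 fold change of -1.09, and all 4 MEP1 libraries had less E2f1 than No treatment. The other 6 genes with an unadjusted p under 0.05 were Plk1 at -0.96, Uhrf1 at -0.80, Top2a at -0.78, Gins2 at -0.73, Cdt1 at 0.53 and Tk1 at 0.80, with edgeR adjusted p of 0.2 (Uhrf1) to 0.271 (Gins2). All 4 MEP1 libraries had less Plk1, Uhrf1, Top2a and Gins2, and more Cdt1 and Tk1, than No treatment. These signs all rest on the same No treatment library. Its erythroid sum was 1719.8 TMM CPM, against 63.8 to 399 in the MEP1 libraries, and its macrophage sum 4463 against 596 to 956. The part of such cells in these differences was not tested.

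The third comparison sets the inhibitor libraries against MEP1+CMC, all 3 sharing that 1 library. In the combination library Ccnb2 and Aurkb were higher. In the rapamycin library Ccnb2 was higher and Bub1b lower (by TMM, not with DESeq2 size factors or library totals). In the metformin library E2f2, Ccnb2 and Aurkb were higher. Ccnb2 and Aurkb reached the minimum for testing only through the metformin library, on 90 counts each there. Of the 35 genes, 2 were higher and 0 lower in the combination library (3.18% and 3.64% of all genes tested), 1 higher and 1 lower in the rapamycin library (5.51% and 5.72%), and 3 higher and 0 lower in the metformin library (2.88% and 2.9%). The medians of all 44 genes were 0.03, -0.28 and 0.14 in these 3 libraries, where those of all genes tested were -0.01, -0.13 and -0.04. With library totals the medians of the 44 genes were 0.15, -0.12 and 0.29, and those of all genes tested 0.11, 0.04 and 0.11.

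Markers of other cells differed in these pairs, and their part in the results was not tested. The erythroid sum was 69.2 TMM CPM in the combination, 102 in the rapamycin and 63.8 in the metformin library, against 399 in MEP1+CMC. Of 11 tested erythroid markers 6, 8 and 8 were lower and 3, 2 and 0 higher, with Slc4a1 at 0 in the metformin library. The macrophage sum was 746, 596 and 676 TMM CPM in these 3 libraries, against 956 in MEP1+CMC. The B cell sum was 917, 725 and 623 TMM CPM, against 875 in MEP1+CMC, with 7 of 9 markers higher in the combination and 4 of 9 lower in the metformin library. The plasma cell sum was 328, 153 and 104 TMM CPM, against 376 in MEP1+CMC, with 5 of 6 markers lower in the metformin library.

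For Ccnb2 the log2 ratio over MEP1+CMC was 1.74 (0.93 to 2.62) in the combination, 2.25 (1.43 to 3.13) in the rapamycin and 2.62 (1.86 to 3.46) in the metformin library, on 54, 51 and 90 against 17 counts. Its processed copy Ccnb2-ps had 29, 32 and 55 counts in these libraries, against 50 in MEP1+CMC. For Aurkb the ratio was 1.12 (0.57 to 1.70) in the combination, -0.70 (-1.63 to 0.17) in the rapamycin and 1.35 (0.80 to 1.92) in the metformin library. E2f2 was above MEP1+CMC in all 3, at 0.69, 0.77 and 1.03, the last past the 2-fold limit, and Ccne1 at 0.16, 0.51 and 0.71.

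None of the MCM subunits passed the size rule in any inhibitor library. In the rapamycin library all 6 had log2 ratios below 0, where all genes tested had a median of -0.13, at -0.62 for Mcm2, -0.10 for Mcm3, -0.52 for Mcm4, -0.41 for Mcm5, -0.85 for Mcm6 and -0.23 for Mcm7, each with a counting interval below 0; with library totals Mcm3 moved to 0.06 and the other 5 stayed below 0. In the combination library the same subunits lay between -0.11 (Mcm6) and 0.13 (Mcm7) by TMM and all above 0 with library totals, and in the metformin library between -0.27 (Mcm5) and 0.10 (Mcm4). The combination over the rapamycin library gave 0.09 for Mcm3 to 0.74 for Mcm6, all 6 with intervals above 0. By the size rule 2 members, Aurkb at 1.82 and Kif11 at 1.55, were higher and 0 lower in that pair, where 3.29% and 3.27% of all genes tested were. In the combination over the metformin library 0 were higher and 0 lower, where 1.25% and 1.83% were. Cdc45 at -0.89 (-1.28 to -0.50), Rrm1 at -0.65 (-0.74 to -0.56), Uhrf1 at -0.48 and Pcna at -0.39 were also below MEP1+CMC in the rapamycin library, while the intervals of Cdt1 at 0.07, Rrm2 at 0.10 and Tyms at 0.14 included no change. Pcna had the same ratio of -0.39 in the combination library.

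Scarce genes gave the widest ratios in the rapamycin library. Cdc6 had 5 counts there, against 52 in MEP1+CMC, a log2 ratio of -2.72 (-4.40 to -1.40), and Bub1 had 5 against 39 counts, a ratio of -2.30 (-4.00 to -0.96). Bub1b, the gene lower among those tested, lay at -1.02 (-1.49 to -0.57), close to the 2-fold limit. Cenpf was higher in all 3 inhibitor libraries, at 1.17 in the combination, 2.04 in the rapamycin and 2.01 in the metformin library, on 32, 39 and 52 against 15 counts. Hmmr passed the size limits in the rapamycin library at 1.81 and in the metformin library at 2.09, and Tpx2 in the metformin library at 1.24. Bub1 was lower in the metformin library, at -1.07 (-2.01 to -0.20).

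In the metformin library 0 of the 7 tested genes of chromosomes, spindle and kinetochore passed the size rule. In sign, 11 of 11 were above MEP1+CMC by TMM, DESeq2 size factors and library totals alike, from 0.13 (Cenpe) to 2.09 (Hmmr), 9 of them with an interval above 0. Of all genes tested 5926 were above 0 and 6996 below, and of the 64 genes of a wider mitosis list 38 were above 0, with a median of 0.09. Mki67 was at 0.69 (0.47 to 0.91), Kif11 at 0.97 (0.50 to 1.44) and Top2a at 0.34 (0.17 to 0.51). Of the same 11 genes, 9 were above MEP1+CMC in the combination library and 6 in the rapamycin library by TMM. In MEP1+CMC over No treatment 9 of the 11 were below 0. In the combination library Mki67 was at 0.09, Kif11 at 0.82 and Top2a at -0.16, and in the rapamycin library at 0.74, -0.73 and -0.49. The S-phase genes of the metformin library had a median of 0.03.

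**Figure D4:**
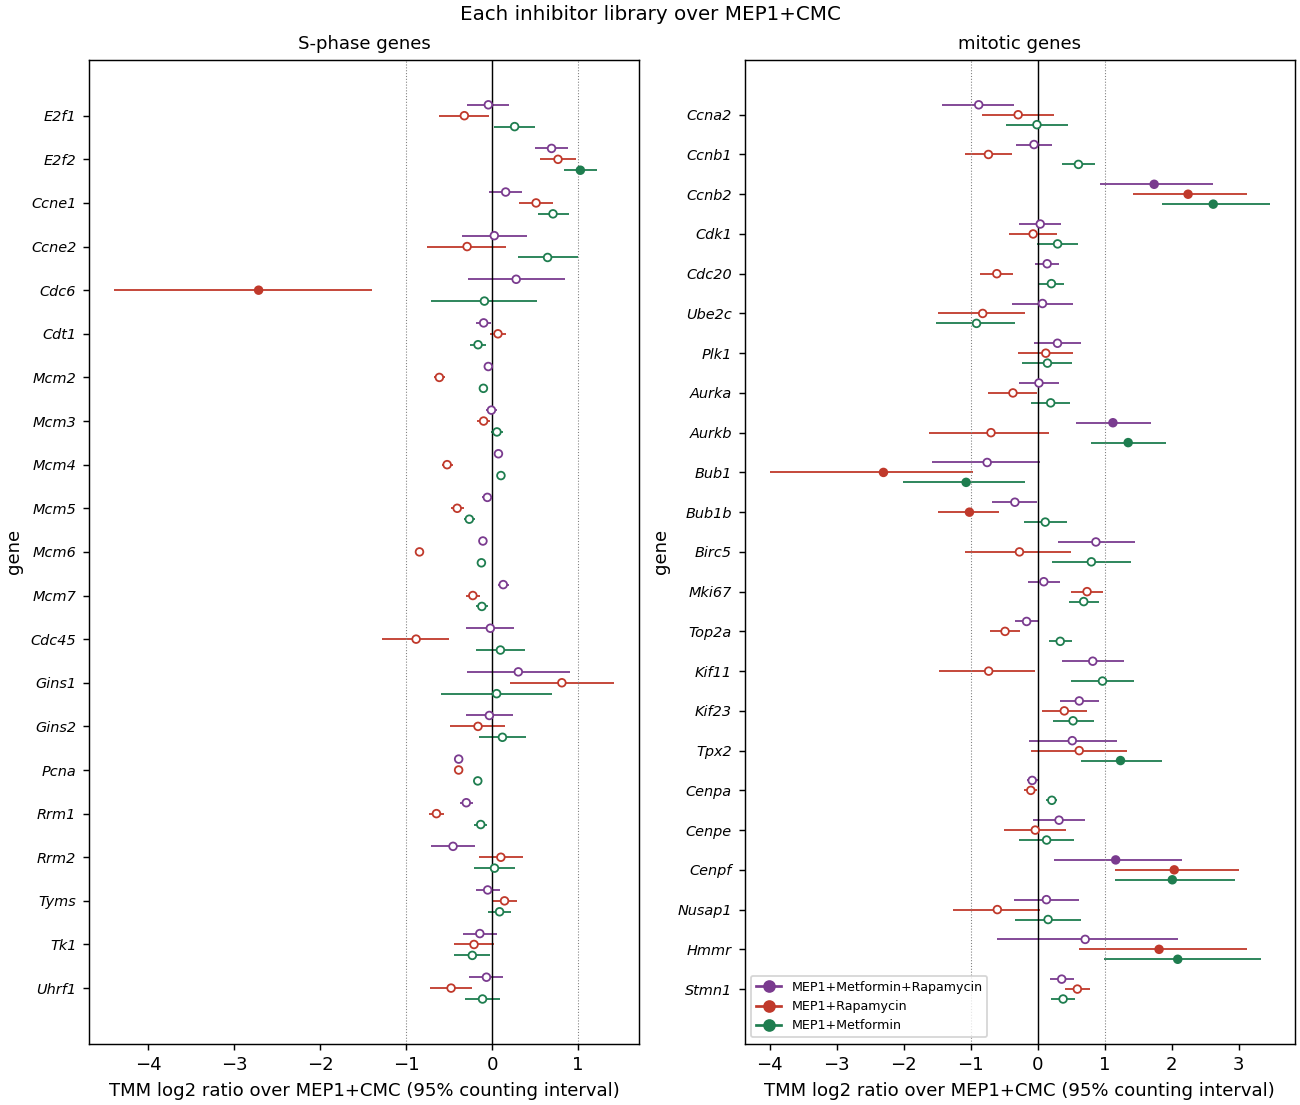
TMM log2 ratios over MEP1+CMC (horizontal axis) of the combination (purple), rapamycin (red) and metformin (green) libraries for the S-phase genes (left) and the mitotic genes (right), with lines for 95% counting intervals, dotted lines at a 2-fold difference and filled points for genes past the size limits, the scarce genes included. The red points of the Mcm genes lie left of the others, down to -0.85 for Mcm6, and Ccnb2 and Cenpf lie to the right in all 3 libraries.

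The 4 MEP1 libraries form a layout of metformin by rapamycin that allows a fit with a term for each inhibitor, with 1 residual degree of freedom. By edgeR's quasi-likelihood test 0 of the 35 genes were called for the rapamycin term, where 0.101% of all genes tested rose and 0.209% fell, and 0 were called for the metformin term, where 0.0696% rose and 0.116% fell. At an unadjusted p under 0.05 there were 0 genes for rapamycin and 1 for metformin, Aurkb at a log2 fold change of 1.53 (SE 0.71, edgeR adjusted p = 0.668). DESeq2's Wald test called 0 genes for rapamycin and gave no adjusted p for any of the 35 for metformin. The lowest adjusted p of the rapamycin term was 0.805, for Ccnb1 at -0.69, and Mcm6 had -0.41 (SE 0.23, edgeR adjusted p = 0.833).

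Other genes of the cycle were taken from 2 wider lists, 44 of replication (43 tested) and 64 of mitosis (38 tested). In No treatment over naive, where 16.3% of all genes tested were higher and 7.18% lower, 12 of the 38 mitotic genes were higher and 0 lower. The higher genes were led by Prc1 at 3.90 (3.08 to 4.86), a microtubule bundler of the spindle midzone, and Kif15 at 3.62 (1.71 to 6.69), a spindle motor. Next came Ncapg at 3.15 (1.75 to 5.05), a condensin subunit. Of the 43 replication genes 5 were higher, a smaller share than the 16.3% of all genes tested, led by Clspn, a checkpoint adaptor, at 2.62 (0.66 to 5.71) and the catalytic subunit of DNA polymerase epsilon, Pole, at 2.27 (1.52 to 3.13), and 2 were lower, Pole2 at -1.94 and Timeless at -1.11. In MEP1+CMC over No treatment the only tested gene of either list past the size rule was Foxm1, the mitotic transcription factor, at -1.38 (-2.03 to -0.76). Of all genes tested, 8.25% were higher and 3.63% lower in that pair.

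Over MEP1+CMC, Foxm1 was higher in all 3 inhibitor libraries, at 1.76 in the combination, 2.03 in the rapamycin and 1.67 in the metformin library, and so was the exonuclease Exo1, at 1.16, 1.53 and 1.53. Both genes were scarce, and the 3 ratios of each share 1 MEP1+CMC value, 0.529 TMM CPM for Foxm1 and 0.699 for Exo1. Foxm1 had 1.37 TMM CPM in No treatment. It reached the minimum for testing only through the rapamycin library, at 2.16 TMM CPM. The counts that follow stand beside 3.18% of all genes tested higher and 3.64% lower in the combination library, 5.51% and 5.72% in the rapamycin and 2.88% and 2.9% in the metformin library. In the combination library 1 replication gene was higher and 0 lower, and 2 mitotic genes were higher (Foxm1 and Mybl2) and 2 lower (Cenpk at -1.88 and Cks2 at -1.01). In the rapamycin library 3 replication genes were higher and 2 lower, Rpa2 and Cdc7, both at -1.18, and 2 mitotic genes were higher and 4 lower, led by Cenpn at -2.19 and by Racgap1, a regulator of cytokinesis, at -1.71 (-1.85 to -1.58). In the metformin library 2 replication genes (Exo1 and Dscc1) and 4 mitotic genes (Foxm1, Mybl2, Sgo1 and Kif18a) were higher and 0 lower. In the edgeR fit of transferred over naive libraries, Prc1 rose (log2 fold change 3.55, SE 0.82, adjusted p = 0.0256) and 0 other genes of these lists were called. In the other 3 edgeR fits 0 genes of either list were called.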

How the data were processed

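The authors deposited a table of raw read counts per gene for each of the 6 libraries, with the summed exon length of each gene beside them per the file headers. Per the labels' protocols, an ultra-low input kit was used. The submitters' processing notes name Trimmomatic 0.36, the aligner STAR 2.5.2b, the counter featureCounts from Subread 1.5.2 and build GRCm38; the annotation release and strand setting are not given in the sources used here. Of 49315 gene IDs, 48970 matched a symbol. Lengths were used only for levels per kilobase.

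Counts were scaled by TMM (edgeR 4.0.16, R 4.3.3) to CPM. Ratios between 2 libraries carry exact 95% Clopper-Pearson intervals, which cover counting error only, and a count of 0 was set to a floor of 3 counts per library. Genes were tested with at least 2 CPM and 10 counts in some library. Across libraries, edgeR's quasi-likelihood test was fitted over all tested genes with Benjamini-Hochberg adjustment at 0.05, for 5 transferred over 1 naive library (4 residual degrees of freedom), 4 MEP1 over 1 No treatment library (3) and an additive fit of both inhibitors (1). The alternatives were DESeq2 1.42.0, library totals, other filters, fold limits and floors, the legacy quasi-likelihood fit, leaving out ribosomal loci and leaving out each library. The procedures were tested on simulated data.

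The members and the wider lists were chosen with earlier results of these data known. Full values are given for 23 members fixed by name, and otherwise for members called in a fit or with up to 5 of the most extreme ratios past the size rule per comparison and direction (3 for the wider lists). Promoter motifs were searched in RefSeq windows of build GRCm38.p6.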

Additional observations from a re-analysis of the deposited data

Results flagged for a closer look

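Bub1 and Hmmr differed in direction between contrasts of the same inhibitor, and the difference was not tested. For metformin, Bub1 had a log2 ratio of -1.07 without rapamycin (MEP1+Metformin over MEP1+CMC) and of 1.55 with it (combination over MEP1+Rapamycin). Hmmr had 2.09 without rapamycin and -1.10 with it. For rapamycin, Hmmr had 1.81 without metformin (MEP1+Rapamycin over MEP1+CMC) and -1.38 with it (combination over MEP1+Metformin). The counts were 22, 5, 16 and 39 for Bub1 and 14, 20, 33 and 9 for Hmmr in the combination, rapamycin, metformin and MEP1+CMC libraries, and neither gene reached the minimum for testing.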

How the results depend on the processing

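With 1 library per condition, differences between pairs of libraries have no replicate check. No paired analysis was possible because each group has 1 library. Counts of members past the size rule moved by over 1.5 times as follows. With a 1.5-fold limit, 4 were lower in No treatment than in naive. In MEP1+CMC over No treatment, 2 were then higher and 12 lower. Over MEP1+CMC, 8 were higher and 1 lower with metformin, 4 higher and 9 lower with rapamycin and 5 higher with the combination. Of all 12928 genes tested, that limit left 2016 lower in No treatment than in naive. It gave 1824 higher and 980 lower in MEP1+CMC over No treatment. Over MEP1+CMC it gave 983 higher and 986 lower with metformin and 1513 and 1978 with rapamycin. With the combination 1080 were higher. With no filter, which adds the scarce members, 2 were lower in No treatment than in naive and 7 lower in MEP1+CMC than in No treatment. Then 6 were higher and 1 lower with metformin, and 3 higher and 3 lower with rapamycin. Of all 38321 genes with counts, 1810 were lower in No treatment than in naive and 1423 lower in MEP1+CMC than in No treatment. With metformin 2174 were higher and 1245 lower, and with rapamycin 4562 and 1417. With a minimum of 10 CPM, which leaves 18 members, 3 were higher in No treatment than in naive and 1 was lower in MEP1+CMC. Then 1 was higher with metformin, 0 were higher or lower with rapamycin and 0 were higher with the combination. That minimum left 9446 genes, of which 1072 were higher in No treatment than in naive and 183 lower in MEP1+CMC. With metformin 66 were higher, with rapamycin 158 were higher and 382 lower, and with the combination 103 were higher. DESeq2 size factors and library totals each left 0 lower with rapamycin (Bub1b lost its call), where 670 and 574 of all genes tested were lower. Library totals gave 1 higher (Tk1) in MEP1+CMC than in No treatment, where 1210 of all genes tested were higher. Library totals moved the median of all genes to 0.51 (0.09 by TMM) in No treatment over naive, 0.07 (-0.04) in MEP1+CMC over No treatment, 0.04 (-0.13) with rapamycin, 0.11 (-0.04) with metformin and 0.11 (-0.01) with the combination, and the S-phase median with the combination turned to 0.074 (-0.04 by TMM). The higher and lower calls over all genes then were 3249 and 426 in No treatment over naive (2110 and 928 by TMM), 964 and 574 with rapamycin (712 and 740), 543 and 296 with metformin (372 and 375) and 533 and 402 with the combination (411 and 471). In the fit of transferred over naive libraries, 9 members were called with library totals, 9 by DESeq2's Wald test, 2 with a minimum of 10 CPM, and 2 to 6 with 1 library left out. In the fit of MEP1 over No treatment 1 was called by DESeq2's Wald test and 0 with any 1 library left out. In the fit of transferred over naive libraries, more of all genes tested also rose with library totals and by DESeq2's Wald test than by edgeR with TMM. Fewer of all genes fell with library totals, and more by the Wald test. The larger counts of members under these settings therefore do not stand for the members alone. The additive fits could not be refitted without a library, since no residual degree of freedom is left. Leaving out the ribosomal loci or a floor of 1 count changed no count of members.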
